A study of Mus musculus with 13 samples.

Results

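The genes described here encode the lysosomal cathepsins, the subunits and accessory proteins of the vacuolar proton pump (V-ATPase) and the lysosomal membrane glycoproteins LAMP1 and LAMP2. They were the symbols of the gene table written as Cts plus 1 letter, those that start with Atp6v0 or Atp6v1, and Atp6ap1, Atp6ap2, Lamp1 and Lamp2. This rule reads symbols and no measured value, and it gave 45 of 32544 symbols, of which 18 were cathepsins, 25 belonged to the pump and 2 were Lamp genes. Atp6v0c-ps1, counted with the pump by its symbol, is annotated as a processed pseudogene, and the other 44 as protein coding. Male wild-type (WT) C57BL/6J mice, bought at 7 weeks of age, breathed 21% oxygen (normoxia) or 80% oxygen (hyperoxia) for 5 days. Lungs were perfused and frozen, and RNA of the whole tissue was read at the 3′ ends of transcripts (Quant-seq) in 7 normoxic and 6 hyperoxic libraries. The sources used here do not say that each library came from its own mouse, so p-values measure the spread between libraries, some of which may be technical.

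Lysosomes break down proteins that reach them through endocytosis, phagocytosis and autophagy, and the cathepsins are the proteases that do much of this work at acidic pH. The acid is supplied by the V-ATPase, in which a cytosolic V1 sector hydrolyses ATP and turns a rotor that drives protons through the membrane-embedded V0 sector. In the lung, alveolar macrophages are rich in lysosomes, and alveolar type 2 cells store surfactant in lamellar bodies, which are acidic organelles related to lysosomes.

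Several proton pump genes rose in hyperoxic lung. Of the 20 pump genes with enough counts to test, 8 rose, 1 fell and 11 were not called, whereas of the 10 cathepsins tested 1 rose (Ctsb), 1 fell (Ctsa) and 8 were not called. Neither Lamp1 nor Lamp2 was called, by edgeR or DESeq2, and 0 of the 2 had an unadjusted p under 0.05. A gene was called at an adjusted p under 0.05 in edgeR's quasi-likelihood test over the 12496 genes tested, of which 11.8% rose and 10.8% fell, 22.6% in all. With limma on the deposited log values the split over all genes was 1097 higher and 1729 lower, against 1473 and 1346 here. The called share was 45% of the pump genes and 20% of the cathepsins, the latter close to that of all genes. The difference between these shares was not tested. The median log2 fold change was 0.23 over the pump genes and 0.10 over the cathepsins, beside -0.03 over all genes tested, and the pump genes ran from -1.77 to 1.07 and the cathepsins from -0.76 to 1.32. Over the alternatives the median ran from 0.088 to 0.26 for the pump genes and from -0.065 to 0.19 for the cathepsins, whose sign therefore depended on the setting.

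Levels summed over each class are given in CPM (counts scaled to library size with TMM factors), a scale on which total counts of 1607111 to 4540288 per library were made comparable. The pump sum ran from 1413 to 1771 CPM in normoxia, with a median of 1616, and from 1946 to 2288 in hyperoxia, with a median of 2049. Every hyperoxic library was above every normoxic library on this scale. The sum weighs abundant members most, and 11 of the 20 pump genes tested were not called. Of the 1946 CPM of hyperoxia replicate 1, 471 were Atp6ap2, a gene at 144 to 201 CPM in normoxia. Scaled by library size alone the pump sums overlapped, at 1476 to 1825 against 1789 to 2248 CPM, and without hyperoxia replicate 1 the lowest hyperoxic sum on that scale was 1886. The cathepsin sum ran from 1660 to 2153 CPM in normoxia, with a median of 1967, and from 1315 to 2517 in hyperoxia, with a median of 2162. The cathepsin groups overlapped, and the lowest of all 13 libraries was a hyperoxic one, replicate 1. The cathepsin sum divided by the pump sum was 1.20 ± 0.0748 (SD, n = 7) in normoxia, with a range of 1.11 to 1.33, and 0.994 ± 0.182 (SD, n = 6) in hyperoxia, with a range of 0.675 to 1.21. The groups overlapped, with 2 of the 6 hyperoxic ratios within the normoxic range. The log2 ratio differed by -0.29, beside a within-group SD of 0.21, by -0.18 without hyperoxia replicate 1, and by -0.10 when the mean log2 CPM of each class took the place of the sum.

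**Figure D1:**
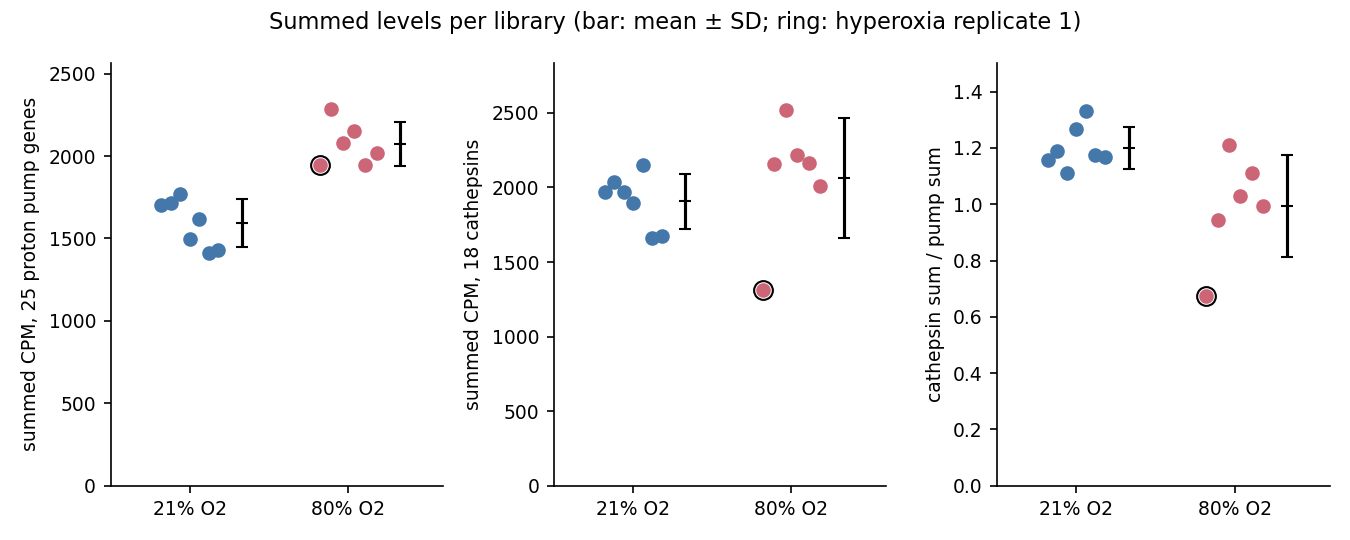
Summed CPM of the 25 proton pump genes, summed CPM of the 18 cathepsins and their ratio in each library at 21% and 80% O2, with the mean ± SD beside the points and a ring around hyperoxia replicate 1. With TMM scaling the pump sums of the groups do not overlap (1413 to 1771 against 1946 to 2288 CPM), which changes with library size alone (1476 to 1825 against 1789 to 2248), and the cathepsin sums overlap on both scales.

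Hyperoxia replicate 1 stood apart. Its mean correlation with the other libraries was 0.779, beside 0.886 to 0.919 for the rest. Without this library 4 cathepsins rose (Ctsb, Ctsh, Ctsk and Ctsl) and 1 fell (Ctsa), and 9 pump genes rose and 1 fell, Atp6v0d2 being the added pump gene. Calls over all genes grew as well, with 1934 higher and 1699 lower of 12752 tested without it, against 1473 and 1346 of 12496 with it. Among members not called with or without it, the difference moved from -0.38 to -0.17 for Atp6v0e, from -0.29 to -0.14 for Atp6v1f, from 0.19 to 0.11 for Atp6v0a2, from -0.30 to -0.096 for Ctso, from 0.15 to 0.35 for Ctsd and from 0.11 to 0.21 for Lamp2. Members that stood near 0 also moved, to 0.28 for Atp6v0d1, 0.24 for Ctsz, 0.21 for Atp6v1h and 0.12 for Atp6v0b, and the sign turned to 0.15 for Atp6ap1, 0.080 for Atp6v1b2, 0.022 for Ctsc and 0.048 for Lamp1. Markers of alveolar type 2 cells were present in every library, and their sum ran from 15022 to 26183 CPM in normoxia and from 4507 to 8324 in hyperoxia. The sum hides low values of single markers. The lowest hyperoxic level was 32.7 CPM for Sftpc (median 1627), 26.8 for Sftpb (median 421) and 10.2 for Slc34a2 (median 104). For Lamp3 (80.6, median 92.1) and Cxcl15 (1059, median 1290) it was near the median.

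**Figure D2:**
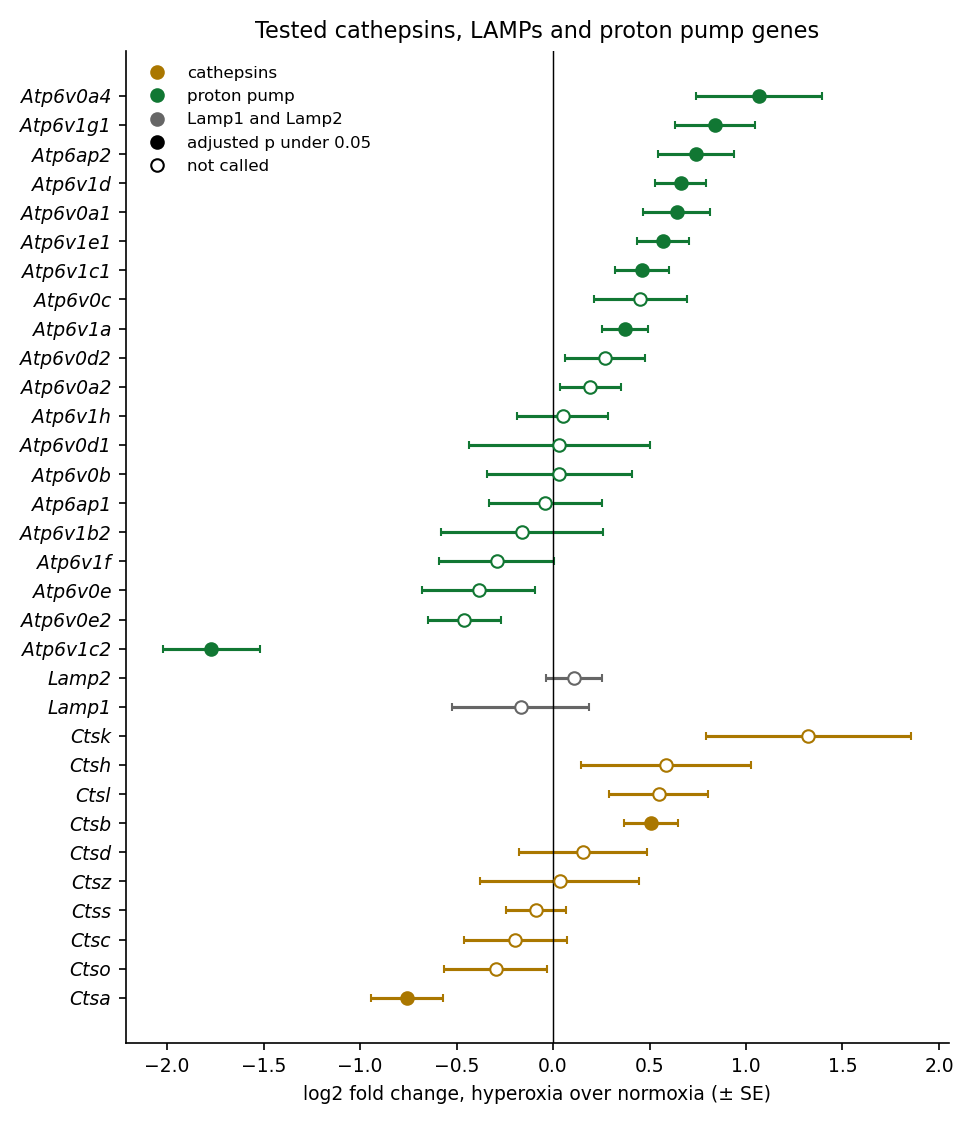
Log2 fold change of hyperoxia over normoxia (± SE) of the 32 members tested, in 3 classes, with filled points for an adjusted p under 0.05 in edgeR. Among the pump genes 8 filled points lie above 0 and 1 below, and among the cathepsins Ctsb lies above and Ctsa below.

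Many lysosomal genes carry near their start a palindrome known as the CLEAR element, bound by TFEB and related factors, whose core is the E-box CACGTG. Promoters of 34 of the 45 members were found in the RefSeq table of GRCm38.p6, each holding the bases from 250 before to 50 after a gene's start. The E-box, which reads the same on both strands, was present in 9 of the 34, which is 26.5%, beside 8.09% of the 27025 genes and 7.15% of the 32851 promoters of the table. These were 4 cathepsins (Ctsa, Ctsd, Ctsf and Ctsl), 4 pump genes (Atp6v0b, Atp6v0d1, Atp6v0e and Atp6v1a) and Lamp1. The longer CACGTGAC, searched on either strand and always holding an E-box, was present in 5 members, or 14.7%, beside 2.55% of the genes and 2.25% of the promoters. Windows around it are shown for these 5, as the members in which the lysosomal motif could be read directly, on the gene's own strand with the motif in capitals.
Lamp1, plus strand, chr8:13159122-13159151, GRCm38.p6: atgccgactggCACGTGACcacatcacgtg
Ctsd, minus strand, chr7:142387907-142387936, GRCm38.p6: cgcccgcgtctCACGTGACccgttgagggc
Ctsa, plus strand, chr2:164833748-164833777, GRCm38.p6: atgagcaaactGTCACGTGatgcagatgct
Atp6v0b, minus strand, chr4:117887349-117887378, GRCm38.p6: tgtgcgcggggGTCACGTGgggtcggcgca
Atp6v0d1, minus strand, chr8:105566051-105566080, GRCm38.p6: gccctactgcgGTCACGTGagacgcggtgc

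The Lamp1 promoter held 4 E-boxes, which began at positions -61, -45, -28 and -15 from the start. Of the 5 members with the longer motif, Ctsa fell and the other 4 were not called. Of the 11 called members 8 had a promoter in the table, and among these Ctsa and Atp6v1a had an E-box in the window.

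The V1 sector held 13 genes, 9 of them tested, of which 5 rose and 1 fell. Atp6v1a encodes the catalytic subunit A, which hydrolyses ATP. Its level was lowest at 313 CPM, median 389 and highest 401 in normoxia, and lowest at 423, median 465 and highest 538 in hyperoxia. All 6 hyperoxic libraries were above all 7 normoxic ones, which ended with library size alone (323 to 408 against 406 to 529 CPM), and Atp6v1a rose by 0.37 on the log2 scale (SE 0.12, edgeR adjusted p = 0.0328). The size of this difference ran from 0.30 to 0.42 over the alternatives, but it was not called without normoxia replicate 4, 6 or 7 or hyperoxia replicate 2, where the adjusted p reached 0.0630 in edgeR, nor in 5 of the 9 alternatives, library size alone and no filter among them. Atp6v1b2, for the other ATP-binding subunit, B2, was not called at -0.16 (edgeR adjusted p = 0.822), with 32.6 to 102 CPM in normoxia and 5.90 to 94.8 in hyperoxia.

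The central stalk transmits rotation to the membrane. Atp6v1d, on chromosome 12 (78840725 to 78861638, minus strand, GRCm38), encodes its subunit D. The lowest, median and highest levels were 52.7, 60.1 and 80.1 CPM in normoxia and 85.0, 103 and 115 CPM in hyperoxia. The groups did not overlap, and the rise of 0.66 (SE 0.13, edgeR adjusted p = 0.0021) was called under every alternative tried and without each library in turn. Its neighbour in the stalk, subunit F (Atp6v1f), was not called at -0.29 (edgeR adjusted p = 0.525), with 13.7 to 37.7 CPM in normoxia and 10.2 to 29.7 in hyperoxia.

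The peripheral stalks, built of subunits E and G, hold the catalytic head in place. Atp6v1e1 (subunit E1) had 181, 213 and 236 CPM as its lowest, median and highest normoxic level and 257, 301 and 411 CPM in hyperoxia. The groups again did not overlap, with a difference of 0.57 (SE 0.13, edgeR adjusted p = 0.00577). Atp6v1g1 (subunit G1) ran from 119 through a median of 137 to 167 CPM in normoxia and from 109 through 263 to 343 in hyperoxia. Hyperoxia replicate 1, at 109 CPM, lay below the normoxic range, and the other 5 hyperoxic libraries were at 229 or more. Atp6v1g1 rose by 0.84 (SE 0.21, edgeR adjusted p = 0.00835), and by 1.01 without that library. Atp6v1h, for the regulatory subunit H, stood at 0.05 (edgeR adjusted p = 0.909).

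Subunit C joins the peripheral stalks to the membrane sector, and its isoforms moved in opposite directions. Atp6v1c2, on chromosome 12 (17284721 to 17329359, minus strand), encodes C2, the isoform found in fewer tissues. In normoxia it was at 32.1, 45.1 and 53.5 CPM (lowest, median, highest), and in hyperoxia at 4.17, 13.2 and 17.2. Every hyperoxic library was below every normoxic one, and the level fell 3.41-fold, by 1.77 on the log2 scale (SE 0.25, edgeR adjusted p = 0.000137), a call made under every alternative and without each library. Atp6v1c1, for the widely expressed isoform C1, was at 32.1, 39.2 and 48.2 CPM in normoxia and 45.0, 55.3 and 62.8 in hyperoxia. Here the groups met between 45.0 and 48.2 CPM. Atp6v1c1 rose by 0.46 (SE 0.14, edgeR adjusted p = 0.0272), and it was not called without normoxia replicate 6 or 7 or hyperoxia replicate 4 or 5 (adjusted p up to 0.0621 in edgeR), nor in 3 of the 9 alternatives, library size alone among them.

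The counts of C1 over those of C2 within a library, which no scaling changes, ran from 0.656 to 1.5 in normoxia and from 3.22 to 11.9 in hyperoxia. The groups did not overlap, and the ratio was above 1 in every hyperoxic library. The sum of the isoforms was 76.9 to 92.5 CPM in normoxia and 53.9 to 79.1 in hyperoxia, where the groups met. Atp6v1c2 overlaps Pdia6, an endoplasmic reticulum chaperone gene on the opposite strand, which fell from a mean of 247 to 183 CPM (-0.43, edgeR adjusted p = 0.0202). The strand setting of the counting is not given in the sources used here, and its part in the difference was not tested. The same holds for the other 4 of the 5 called members that overlap a gene on the opposite strand. These overlaps are of whole gene spans, introns included, and exons were not compared. Ctsb overlaps Fdft1 (mean 64.6 CPM in normoxia and 80.1 in hyperoxia), Atp6v1e1 overlaps Slc25a18 (1.24 and 0.492) and Atp6v0a4 overlaps Tmem213 (0.364 and 0.664), and Ctsa is described below. Atp6v0a4 also overlaps D630045J12Rik on its own strand, which was at a mean of 19.8 and 14.9 CPM. In bulk tissue, fewer cells of a type and less RNA per cell cannot be told apart, and 7 of the 8 alveolar type 2 markers fell (median -1.71).

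**Figure D3:**
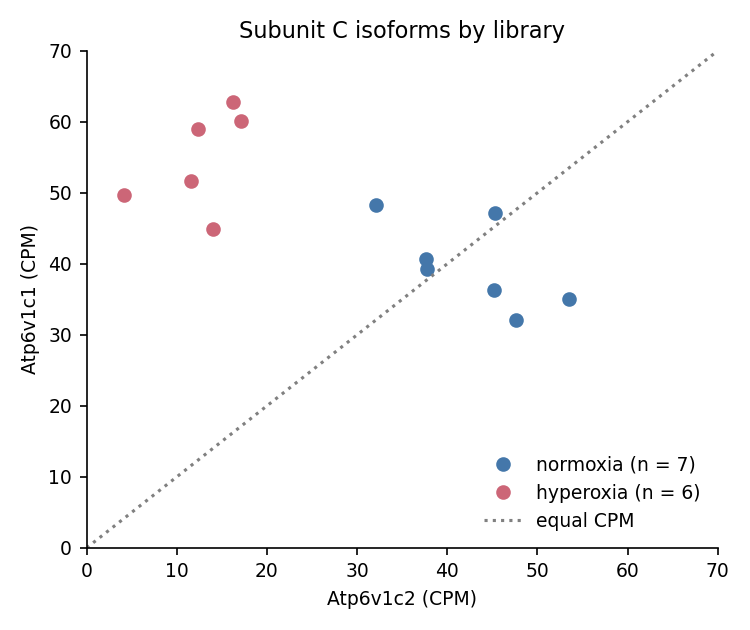
CPM of Atp6v1c1 against CPM of Atp6v1c2 in each of the 7 normoxic and 6 hyperoxic libraries, with a dotted line at equal CPM. All hyperoxic libraries lie above the line, at 17.2 CPM of Atp6v1c2 or less, while the normoxic ones lie on both sides of it.

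In the V0 sector 9 of 10 genes were tested, and 2 rose, both encoding isoforms of the large subunit a, which steers the pump to particular membranes. Atp6v0a1 was at 16.1, 22.9 and 27.0 CPM in normoxia and at 22.5, 33.6 and 40.1 in hyperoxia (lowest, median, highest). The lowest hyperoxic value was that of replicate 1, and the other 5 were above the normoxic range. The difference was 0.64 (SE 0.17, edgeR adjusted p = 0.0149). Atp6v0a4, known from acid-secreting cells of the kidney, was at 1.23, 4.18 and 8.21 CPM in normoxia and 6.95, 7.84 and 14.5 in hyperoxia. These levels are close to the 0.656 to 1.84 CPM that a floor of 3 counts corresponds to, and 1 normoxic library (replicate 1) lay within the hyperoxic range. The rise was 1.07 (SE 0.33, edgeR adjusted p = 0.0264), was 0.90 without hyperoxia replicate 1 and was not called without normoxia replicate 3 (edgeR adjusted p = 0.0532). Markers of ionocytes, airway cells rich in proton pumps, summed to 5.38 to 13.1 CPM in normoxia and 5.21 to 16.1 in hyperoxia, but Cftr alone carried these sums, since Foxi1 was at 0 everywhere and Ascl3 had 4 counts in all. Atp6v0a2, for the Golgi isoform a2, was not called at 0.19 (edgeR adjusted p = 0.419). The remaining isoform, a3, is encoded by Tcirg1, which the symbol rule leaves out. It was at 6.97 to 40.9 CPM in normoxia and 2.78 to 22.3 in hyperoxia and was not called at -0.48 (edgeR adjusted p = 0.479).

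Subunits of the proton-carrying ring and its base did not pass the test. Atp6v0c, for the ring proteolipid c, had 46.0, 93.6 and 133 CPM in normoxia and 67.6, 121 and 158 in hyperoxia. The groups overlapped widely (0.45, edgeR adjusted p = 0.200), although Atp6v0c was called at 0.55 (adjusted p = 0.0109) when gene length and GC content were corrected for in edgeR. Atp6v0b (proteolipid c″) and Atp6v0d1 (subunit d1, which couples the stalk to the ring), printed above with their motifs, both stood at 0.03 with adjusted p values in edgeR of 0.965 and 0.972. Their 95% intervals, -0.79 to 0.86 and -0.997 to 1.06, left changes of either sign within reach. Atp6v0d2, the isoform known from osteoclasts and macrophages, was at 28.2, 39.4 and 41.5 CPM in normoxia and 20.4, 46.1 and 62.9 in hyperoxia. Its difference of 0.27 was not called (edgeR adjusted p = 0.387), and it was 0.43 (edgeR adjusted p = 0.0487) without hyperoxia replicate 1. The small subunits Atp6v0e and Atp6v0e2 stood at -0.38 and -0.46, with adjusted p values in edgeR of 0.383 and 0.0933.

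Of the accessory proteins, Atp6ap2, the prorenin receptor that is also needed for pump assembly, was at 144, 178 and 201 CPM in normoxia and at 179, 255 and 471 in hyperoxia. Hyperoxia replicate 1 was the highest, and replicate 6 lay within the normoxic range. Atp6ap2 rose by 0.74 (SE 0.20, edgeR adjusted p = 0.0129), and by 0.57 without replicate 1. Its partner Atp6ap1 was at -0.04 (edgeR adjusted p = 0.940).

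**Figure D4:**
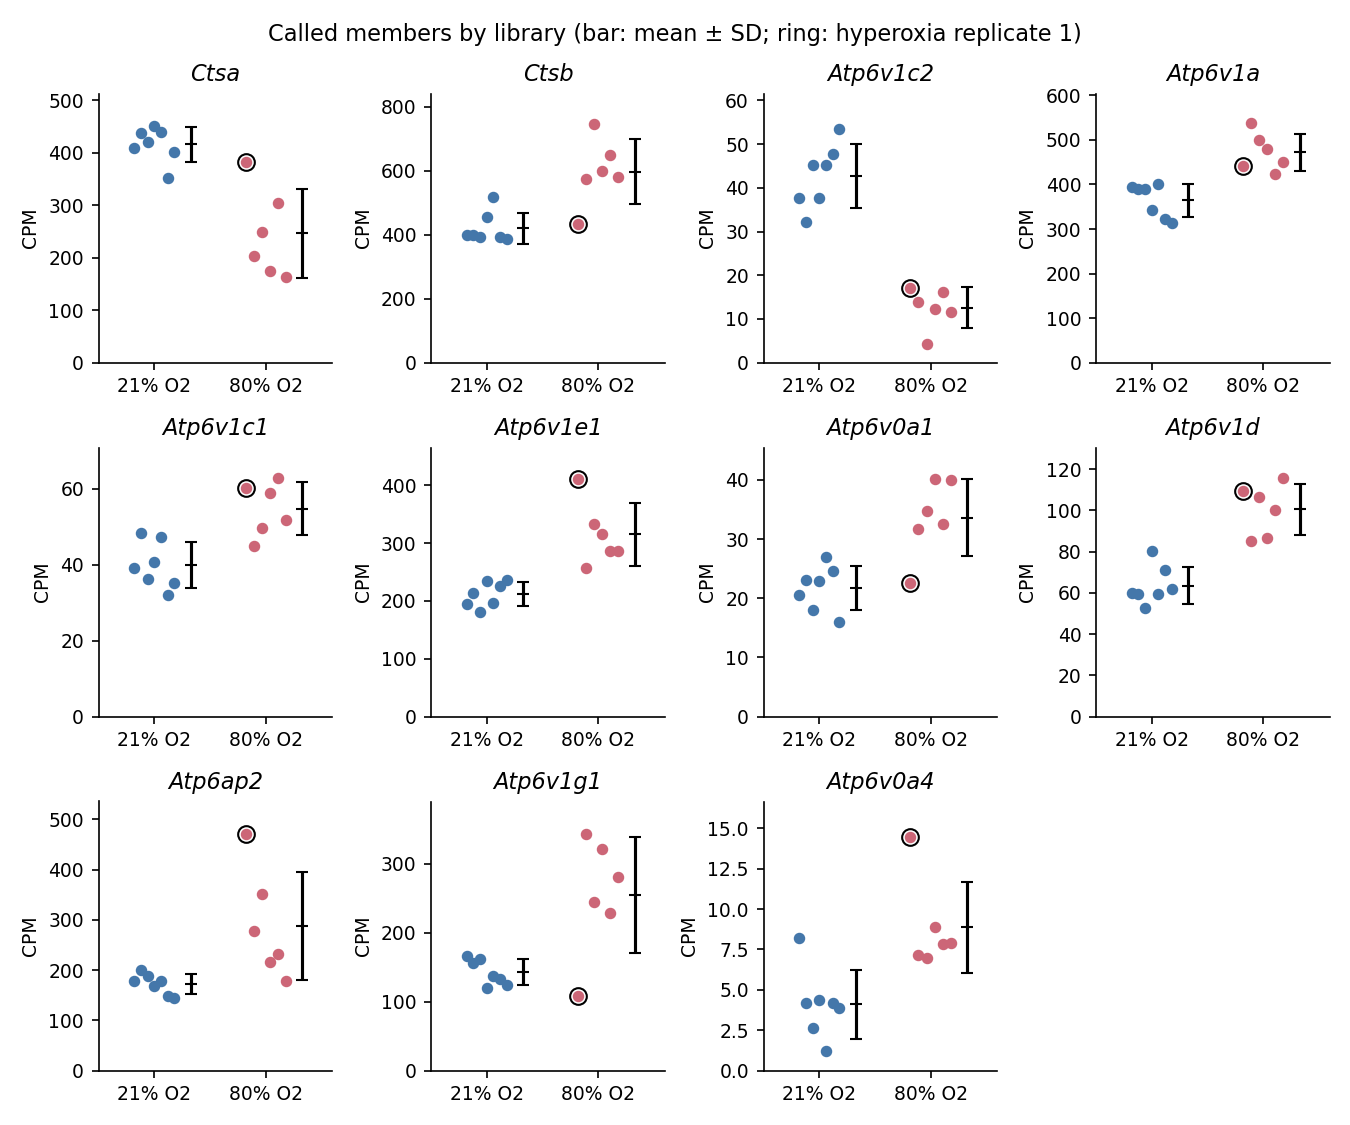
CPM of each of the 11 called members in the 7 libraries at 21% O2 and the 6 at 80% O2, with mean ± SD beside the points and a ring around hyperoxia replicate 1. With this scaling the groups do not overlap for Atp6v1c2, Atp6v1a, Atp6v1d and Atp6v1e1, of which Atp6v1a overlaps with library size alone. The ringed library lies within the normoxic range for Ctsa, Ctsb and Atp6v0a1 and below it for Atp6v1g1.

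Among the cathepsins, Ctsb and Ctsa moved in opposite directions. Ctsb, on chromosome 14 (63122462 to 63145923, plus strand), encodes the cysteine protease cathepsin B. It was at 387, 399 and 518 CPM in normoxia and 433, 589 and 746 in hyperoxia (lowest, median, highest). Hyperoxia replicate 1, at 433 CPM, was the only hyperoxic library within the normoxic range. Ctsb rose by 0.51 (SE 0.14, edgeR adjusted p = 0.0151) and made up 19.6% to 24.0% of the cathepsin sum in normoxia and 26.6% to 32.9% in hyperoxia.

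Ctsa, on chromosome 2 (164832873 to 164841032, plus strand), encodes cathepsin A, a serine carboxypeptidase that also protects the lysosomal β-galactosidase and neuraminidase from breakdown. Its lowest, median and highest levels were 351, 421 and 451 CPM in normoxia and 162, 227 and 383 in hyperoxia. The highest hyperoxic value was again replicate 1, and the other 5, at 304 CPM or less, lay below every normoxic library. Ctsa fell by 0.76 (SE 0.19, edgeR adjusted p = 0.00832), and by 0.90 without replicate 1. With a correction for gene length and GC content the difference was -0.61 and was not called (edgeR adjusted p = 0.0979). Ctsa overlaps Pltp, a phospholipid transfer protein gene on the opposite strand, which fell from a mean of 41.3 to 14.6 CPM (-1.45, edgeR adjusted p = 0.0326). The part of that overlap was not tested.

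The other cysteine cathepsins did not pass the edgeR test with all libraries, although DESeq2 called Ctsk. Ctsl (cathepsin L) was at 229, 256 and 323 CPM in normoxia and 131, 378 and 699 in hyperoxia. Its hyperoxic libraries lay on both sides of the normoxic range, replicate 1 below it and the other 5 above it. The difference was 0.55 (edgeR adjusted p = 0.145), and 0.75 (edgeR adjusted p = 0.00439) without replicate 1.

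Ctsh (cathepsin H, an aminopeptidase that also takes part in surfactant protein processing) was at 73.2, 117 and 156 CPM in normoxia and at 10.2, 179 and 282 in hyperoxia. Again replicate 1 was below every other library. The difference of 0.58 (edgeR adjusted p = 0.375) became 0.85 (edgeR adjusted p = 0.00853) without it. Ctsk, for the collagen-degrading cathepsin K, was at 3.87, 6.73 and 13.7 CPM in normoxia and at 0, 20.7 and 27.5 in hyperoxia. No count was found in hyperoxia replicate 1, which allows up to 1.61 CPM there, and replicate 3 lay within the normoxic range. Its difference was 1.32 (SE 0.53, edgeR adjusted p = 0.0870), against 1.31 in DESeq2 (adjusted p = 0.0479), and 1.58 in edgeR (adjusted p = 0.00183) without replicate 1.

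Ctsc (dipeptidyl peptidase I, which activates granule proteases) was at 211, 225 and 274 CPM in normoxia and 55.2, 216 and 341 in hyperoxia, a difference of -0.19 (edgeR adjusted p = 0.650). Ctss (cathepsin S, which trims the invariant chain in antigen-presenting cells) was at 155, 216 and 252 CPM in normoxia and 142, 200 and 239 in hyperoxia. Its groups overlapped almost fully, and the difference of -0.09 (edgeR adjusted p = 0.731) had a 95% interval of -0.43 to 0.25. Over the same libraries, 8 of 9 dendritic cell markers tested fell (median -1.29), as did all 5 B cell markers (median -2.01), in the edgeR test. Ctsz, a carboxypeptidase, stood at 0.04 and Ctso at -0.30, with adjusted p values in edgeR of 0.965 and 0.470.

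Ctsd, for the aspartic protease cathepsin D, whose promoter window is printed above, was at 47.1, 127 and 149 CPM in normoxia and 38.6, 123 and 189 in hyperoxia. The groups overlapped, and the difference of 0.15 (edgeR adjusted p = 0.785) had a 95% interval of -0.58 to 0.89. LAMP1 and LAMP2 are the main glycoproteins that line the inner face of the lysosomal membrane. Lamp1 was at 208, 304 and 470 CPM in normoxia and 70.2, 310 and 509 in hyperoxia (-0.17, edgeR adjusted p = 0.783). Lamp2 was at 87.8, 119 and 133 CPM in normoxia and 85.2, 132 and 145 in hyperoxia (0.11, edgeR adjusted p = 0.633). Their 95% intervals were -0.95 to 0.61 and -0.21 to 0.43.

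Groups did not overlap for 3 members that rose (Atp6v1a, Atp6v1d and Atp6v1e1) and 1 that fell (Atp6v1c2), all pump genes, beside 10.8% of all genes tested. No cathepsin and no Lamp gene met this. With library size alone Atp6v1a no longer did, and among the 11 called members Ctsa did (372 to 451 against 164 to 352 CPM).

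The 13 untested members held at most 24 counts in a library. Of these, 6 had no count in any library (Ctsj, Ctsm, Ctsq, Ctsr, Atp6v0c-ps1 and Atp6v1e2), where 3 counts correspond to 0.656 to 1.84 CPM. Atp6v1b1, for subunit B1 of acid-secreting epithelia, had 1.87 to 4.90 CPM in normoxia and 0 to 1.61 in hyperoxia. These groups did not overlap, at levels near the floor, and the gene was called lower when no filter on low counts was used. Ctsf had 0.279 to 7.85 CPM in normoxia and 1.35 to 2.84 in hyperoxia. The others were Ctse, Ctsg, Ctsw, Atp6v1g2 and Atp6v1g3, whose highest value was 4.19 CPM, for Ctsw, a protease of cytotoxic lymphocytes, in a normoxic library.

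Members differed in how far libraries of 1 group spread. In 17 tested members the within-group SD of log2 CPM was 0.5 or less (median 0.275), and 10 of these were called. In the other 15 it was above 0.5 (median 0.741), and only Atp6v0a4 was called. Of all genes 28.4% were called at an SD of 0.5 or less and 13.6% above it. Over all genes the median was 0.432, and 39.5% were above 0.5.

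The libraries also differed in base composition, measured as the mean log2 CPM of the 20% of genes richest in GC minus that of the poorest 20%. This contrast ran from -1.65 to -0.67 in normoxia and from -1.60 to -0.67 in hyperoxia. The 6 libraries lowest in it, 3 normoxic and 3 hyperoxic, were exactly the 6 lowest in Atp6v0b, Ctsd, Ctsz and Lamp1, and 11 members shared 5 or 6 of them. The share of all genes that did so is not given here. Median GC content was 51.2% in the members of wide spread and 49.2% in the others.

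**Figure D5:**
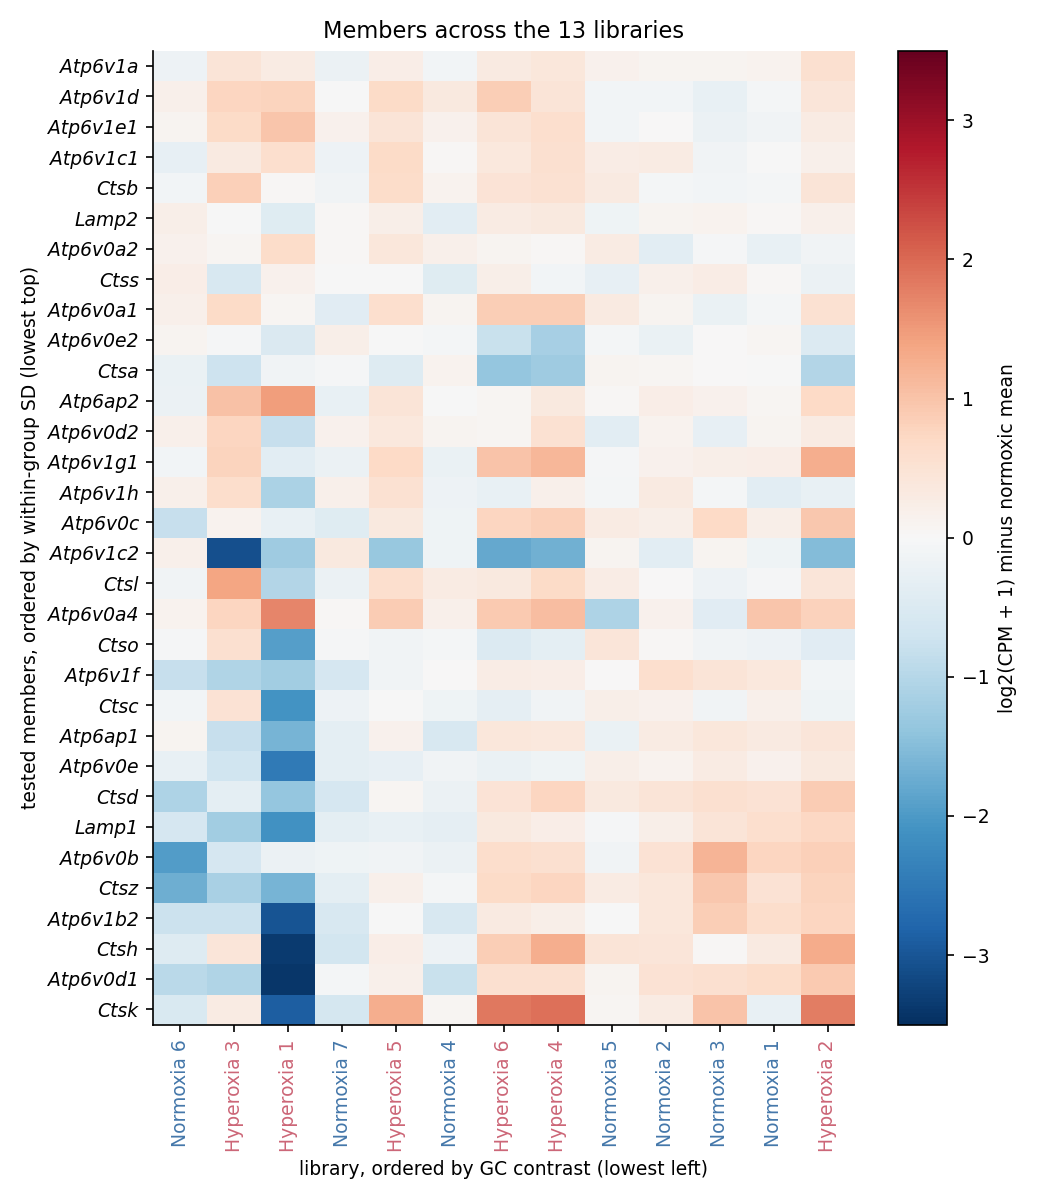
Log2(CPM + 1) of each tested member minus its normoxic mean (colour, -3.39 to 1.94) in the 13 libraries, ordered by the GC contrast from the lowest at the left, with members ordered by within-group SD from the lowest at the top. Members near the bottom, such as Ctsz, Atp6v0b, Lamp1 and Ctsd, are low in the libraries at the left in both groups.

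Library names carry letters in an early set (B to M, 5 normoxic and 3 hyperoxic) and a late set (O to S, 2 and 3), whose meaning is not given in the sources used here. Taken as the difference of mean log2 CPM within each set, with no fit, all 11 called members had the same sign in both. Another 12 members, none called in edgeR and 1 (Ctsk) in DESeq2, were negative in the early set and positive in the late one. Ctsd, for instance, was at -0.60 and 1.27, Ctsk at -0.67 and 2.33, Atp6v0d1 at -1.47 and 0.96 and Lamp1 at -1.06 and 0.55. The early set holds hyperoxia replicate 1. With the set as a term in the fit over all libraries, the same 11 members were called.

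Over 6 lists of other lysosomal genes, 5 of 110 tested rose (4.55%) and 10 fell (9.09%), below and near the shares of all genes (11.8% and 10.8%). Of 42 lysosomal hydrolases tested 2 rose and 6 fell (median -0.16). Asah1 (acid ceramidase, 0.66) and Neu1 (the neuraminidase that cathepsin A protects, 0.57) rose, with adjusted p values in edgeR of 0.00767 and 0.0145. Sgsh (a heparan sulfatase, -1.04) and Prcp (a carboxypeptidase, -0.73) fell, with 0.0020 and 0.00308. Npc2, the cholesterol carrier, was not called at 0.21 (edgeR adjusted p = 0.572). Of 28 lysosomal membrane proteins tested none rose and 2 fell in edgeR (median -0.21), with 0 and 6 at an unadjusted p under 0.05 and 0 and 2 in DESeq2. The 2 were Slc17a5 (sialic acid exporter, -0.63) and Mcoln3 (a cation channel, -0.90), while Laptm4a was not called at -0.64 (edgeR adjusted p = 0.138).

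Of the 11 partners of the pump outside the symbol rule, such as assembly factors, 10 were tested, none rose and Ncoa7, a pump-binding protein, fell (-0.55, edgeR adjusted p = 0.0174). At an unadjusted p under 0.05 there were 2 higher and 3 lower, and DESeq2 called 2 and 2. Oxr1, the partner with most counts, was not called at 0.19 (edgeR adjusted p = 0.521). Of 5 cathepsin inhibitors tested Ctla2a, a cysteine protease inhibitor related to a cathepsin propeptide, rose from a mean of 436 to 1226 CPM (1.49, edgeR adjusted p = 9.4e-05). The groups did not overlap, at 337 to 546 CPM and 863 to 2110 CPM. Cst3 (cystatin C) was not called at -1.21 (edgeR adjusted p = 0.104), while DESeq2 and an unadjusted p under 0.05 each gave 1 inhibitor higher and 1 lower.

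Of 16 genes for MiT/TFE factors and the lysosomal mTORC1 platform tested 2 rose and none fell in edgeR, with the same counts at an unadjusted p under 0.05 and in DESeq2. They were Fnip2 (a folliculin partner, 0.78) and Rragd (a Rag GTPase, 1.31), and Fnip1 was not called at 0.24. Of 9 genes of mannose 6-phosphate and related sorting none rose in edgeR, beside 1 at an unadjusted p under 0.05 and 1 in DESeq2, and Sort1, a sorting receptor, fell (-0.76, edgeR adjusted p = 0.000412).

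Markers of the cell types that hold many lysosomes moved in both directions in edgeR. Of 10 alveolar macrophage markers tested Mrc1 rose and Ear1, Ear2, Siglecf and Krt79 fell, and the sum was 368 to 473 CPM in normoxia and 194 to 736 in hyperoxia. Of 13 markers of monocytes and recruited macrophages tested 4 rose, Gpnmb (1.62), Trem2 (1.61), Spp1 (1.64) and Ms4a7 (0.76), and 2 fell, Ccr2 and Ly6c2. Their sum was 369 to 434 CPM in normoxia and 373 to 730 in hyperoxia, so the groups overlapped. Gpnmb, a lysosomal glycoprotein of macrophages, was at 22.4 to 47.2 CPM in normoxia and 61.0 to 196 in hyperoxia. The part of these cells in the values of the cathepsins and the pump was not tested. Of 12 neutrophil markers 6 were tested and none was called in edgeR, beside 0 higher and 1 lower at an unadjusted p under 0.05 and in DESeq2, with sums over the 12 of 115 to 228 and 60.6 to 305 CPM and Elane at 0 everywhere. Mast cell and basophil markers, too low to test, summed to 2.45 to 4.16 and 0.536 to 2.50 CPM, and 3 of 4 T and NK cell markers tested fell.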

How the data were processed

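Per the labels and the study's methods, 3′ mRNA libraries (Quant-seq) were sequenced from lung RNA. The authors deposited raw counts per gene symbol and log10 values of CPM + 1. The submitters' processing notes name kallisto, limma 3.54.2 and mm10. The log10 values were recomputed from the counts to within 4.4e-16. No column was left unmapped to a sample (0). Counts carry no molecular identifiers. The count of a single library gives counting error only, and spread was estimated between libraries.

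Counts were analysed in R 4.3.3 with edgeR 4.0.16 (filterByExpr, TMM, quasi-likelihood test, two-sided, Benjamini-Hochberg over 12496 genes), 7 normoxic against 6 hyperoxic libraries, with no covariate. Log2 CPM used a prior count of 2. Scripts were tested on simulated data with larger changes than most called members showed and less spread than these libraries. That test checks the code and not the calls. Gene positions came from GENCODE (GRCm38) and promoters from RefSeq GRCm38.p6. Members and gene lists were chosen with earlier results of these data known, so lists were described by counts and medians and not tested. All members could be named. Of each other lysosomal list, the 2 called genes of smallest adjusted p in each direction and the 1 gene with most counts were named. Cst3, the inhibitor with most counts after Ctla2a, was named outside this rule. Called cell markers were named where their direction was split, and single type 2, ionocyte and neutrophil markers beside their sums. Tcirg1 and the overlapping genes were added after their values were seen.

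Alternatives used DESeq2 1.42.0, limma 3.58.1 (voom, and the deposited values on a log2 scale), scaling by library size, a filter of at least 10 counts in all 13 libraries or none, a block for the replicate number, a term for the letter set of the library names, and the removal of each library. A correction for length and GC content (splines with 5 terms each, 11884 genes with values) and summed levels scaled by library size were added after seeing the data.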

Additional observations from a re-analysis of the deposited data

Results flagged for a closer look

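Among 70 groups of libraries, each 1 member in 1 condition, 3 held a library far from the others by Dixon's test, where chance gives about 1 in 20, or 4. Atp6v0a4 in hyperoxia gave a ratio of gap to range of 0.743, with replicate 1 at 14.5 CPM and the next library at 8.89. Ctsk in normoxia gave 0.577, with replicate 3 at 13.7 CPM and the next at 8.04. Ctso, a cysteine cathepsin, gave 0.672 in normoxia, with replicate 5 at 67.4 CPM and the next at 51.7.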

How the results depend on the processing

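Calls of Atp6v1d and Atp6v1c2 were made in every fit, and over the 9 alternatives Atp6v1c2 ran from -1.88 to -1.73 and Atp6v1d from 0.58 to 0.70. The filter left 13 members with few or no counts untested, and for the 6 with no count, low expression and none cannot be told apart at this depth. Limma on the deposited values moved the median of all genes to -0.16 and library size alone to -0.10, so small differences there are relative to those shifts. Over the single members, 24 calls were lost and 9 gained across all alternatives, and the 45 changes of sign all concerned members called in neither fit. The causes were not tested.

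Replicate numbers 1 to 6 occur in both conditions, but deviations of libraries with the same number correlated at -0.33 to 0.27, so they share only a number. With the replicate number as a block (12 libraries) 703 genes rose and 588 fell, 0 cathepsins rose, 1 pump gene rose (Atp6v1d), and the other lysosomal lists held 3 higher and 3 lower. Under the block Atp6v0d1 was at -0.14, Atp6v1h at -0.0021 and Ctsz at -0.091.

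DESeq2 called 2 cathepsins higher (Ctsb and Ctsk) and 8 genes of the other lists higher. The pump genes called lower were 2 with limma on the deposited values, library size alone, no filter or at least 10 counts (Atp6v0e2 or, with no filter, Atp6v1b1 beside Atp6v1c2). With no filter 6 genes of the other lists fell, against 10. With the length and GC correction 0 cathepsins fell.

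Limma-voom turned Atp6v0d1 to -0.21 and Atp6v1h to -0.019. Limma on the deposited values turned Atp6v0d1 to -0.44, Atp6v1h to -0.12 and Ctsz to -0.14. Library size alone gave -0.021 for Atp6v0b, -0.011 for Atp6v0d1, -0.028 for Atp6v1h and -0.0074 for Ctsz. At least 10 counts gave -0.031 for Atp6v0b, -0.012 for Atp6v1h and -0.014 for Ctsz. Atp6v1h was at -0.0060 with the letter set as a term and at -0.056 with the length and GC correction.

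Leaving out each library in turn gave 1 to 4 cathepsins higher, 6 to 9 pump genes higher, 5 to 11 genes of the other lists higher and 5 to 13 lower, 1256 to 1934 genes higher and 1049 to 1699 lower. Ranges that crossed 0 were -0.13 to 0.15 for Atp6ap1, -0.14 to 0.30 for Atp6v0b, -0.17 to 0.28 for Atp6v0d1, -0.38 to 0.080 for Atp6v1b2, -0.073 to 0.21 for Atp6v1h, -0.37 to 0.022 for Ctsc, -0.13 to 0.018 for Ctss, -0.13 to 0.24 for Ctsz and -0.39 to 0.048 for Lamp1. The median over the cathepsins ran from -0.066 to 0.25 and over the pump genes from 0.22 to 0.35. The cathepsin median was below 0 with limma on the deposited values (-0.065), at least 10 counts (-0.014) and the block (-0.030), and without normoxia replicate 6 or hyperoxia replicate 2, 4 or 6. The pump median was lowest, at 0.088, with no filter. The log2 ratio of the sums differed by -0.35 to -0.18, the latter without hyperoxia replicate 1.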
